A study of Mus musculus with 57 samples.

Results

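The genes described here are 9 genes of T cells and natural killer (NK) cells, read from RNA of CD11b-positive cells of mouse brain that the labels call microglia. They were chosen by symbol, as Cd3d, Cd3e, Cd3g, Trbc2, Nkg7, Gzma, Klrb1c, Il2rb and Il7r, and all 9 are in both count tables, of 50565 genes in one and 53278 in the other. The study asked how loss of P2RY12, a nucleotide receptor of resting microglia, changes the microglial transcriptome in males and females and under lipopolysaccharide (LPS), a bacterial cell-wall component. The sex experiment has 18 animals, of which 8 are wild type (WT, 4 of each sex) and 10 are deficient in P2RY12 (KO, 5 of each sex). The LPS experiment has 32 samples of WT and KO animals labelled either LPS, given into the peritoneum at 1 mg/kg, or ns, a term the labels do not define. KO and WT mice were littermates. The labels give no age, strain, allele or time after LPS, and no treatment for single animals of the sex experiment.

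T cells read antigen through a receptor whose alpha and beta chains are carried by the CD3 chains, and without CD3 the receptor does not reach the surface. NK cells kill without such a receptor: they weigh activating against inhibitory surface receptors, many of them lectin-like proteins of the Klr family, and release granules with granzymes. Both cell types live on cytokines that share receptor chains, with IL-15 read through Il2rb and the common gamma chain Il2rg, and IL-7 read through Il7r and the same gamma chain. In a healthy brain both are rare and sit mostly at the borders. Mature mouse NK cells carry CD11b, the marker used here to collect the cells, while most resting T cells do not. In a bulk sample, fewer cells of a type and less RNA per cell cannot be told apart.

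The promoters of 4 members are shown because their levels moved together (Klrb1c, Gzma), partly so (Nkg7) or apart from the others (Il7r) over the animals of the sex experiment. Under LPS Klrb1c was called lower in KO and Gzma was not called; the difference between the 2 genes was not tested. Each run is the 250 bases before the RefSeq start of the gene, 5′ to 3′ along its strand, from RefSeq on build GRCm38.p6, and 7 of the 9 members had an entry. Capitals mark 3 motifs of lymphocyte transcription factor families, searched on both strands and allowed to overlap: TGTGGT (RUNX), AGGAAG (ETS) and GGTGTG (T-box).
Klrb1c: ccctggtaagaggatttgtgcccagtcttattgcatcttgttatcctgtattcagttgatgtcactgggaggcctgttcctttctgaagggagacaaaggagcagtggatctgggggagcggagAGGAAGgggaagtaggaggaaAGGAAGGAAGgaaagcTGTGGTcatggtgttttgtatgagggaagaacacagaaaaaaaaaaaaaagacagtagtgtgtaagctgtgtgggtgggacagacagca
Gzma: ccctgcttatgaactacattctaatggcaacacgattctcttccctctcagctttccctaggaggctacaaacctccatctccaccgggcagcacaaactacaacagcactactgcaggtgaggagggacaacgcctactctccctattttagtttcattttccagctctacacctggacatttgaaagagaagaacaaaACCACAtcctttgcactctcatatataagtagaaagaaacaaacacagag
Nkg7: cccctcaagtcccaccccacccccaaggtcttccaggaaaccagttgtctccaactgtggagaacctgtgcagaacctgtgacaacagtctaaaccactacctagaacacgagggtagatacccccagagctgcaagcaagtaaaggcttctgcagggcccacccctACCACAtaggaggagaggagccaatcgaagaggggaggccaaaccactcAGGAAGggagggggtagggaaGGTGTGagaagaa
Il7r: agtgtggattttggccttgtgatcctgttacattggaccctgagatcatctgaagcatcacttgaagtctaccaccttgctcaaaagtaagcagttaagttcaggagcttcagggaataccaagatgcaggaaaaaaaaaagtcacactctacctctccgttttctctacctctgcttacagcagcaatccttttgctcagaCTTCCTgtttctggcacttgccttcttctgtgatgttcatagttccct
The Klrb1c run lies at chr6:128788642-128788891 on the minus strand, the Gzma run at chr13:113100982-113101231 on the minus strand, the Nkg7 run at chr7:43436888-43437137 on the plus strand and the Il7r run at chr15:9529877-9530126 on the minus strand. The RUNX letters occurred once each in the Klrb1c, Gzma and Nkg7 runs and not in the Il7r run, and 14.0% of all 32851 promoters of this length hold them. The ETS letters occurred 3 times in Klrb1c, where the last 2 overlap, and once each in Nkg7 and Il7r, against 29.5% of all promoters with at least 1. Among the 4 shown, the T-box letters occurred once, in Nkg7, against 16.3% of all promoters. Of the members not shown, Cd3d, Cd3e and Cd3g had 0 RUNX matches. The T-box letters occurred once in Cd3d, and the ETS letters once in Cd3d, 2 times in Cd3e and 0 times in Cd3g. The runs shown were picked by their levels, so their matches do not show an excess over all promoters. A match describes letters in the window, not a bound site.

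Levels are given in CPM, the count of a gene per mega counts of its library after TMM scaling, and they compare libraries, not genes, since no length enters them. Totals per library ran from 58.5 to 318.5 M counts (M standing for mega) in the sex experiment and from 15.9 to 168.4 M in the LPS experiment. P2ry12 was at 309.2 to 526.2 CPM in the KO animals of the sex experiment and at 3006 to 5927 CPM in the WT animals, as the labels say. In the LPS experiment the 4 WT libraries of library number 2 went against their treatment label. Saa3, an acute-phase gene induced by LPS, was at 1813 and 2425 CPM in the pair labelled WT ns and at 1.61 and 2.98 CPM in the pair labelled WT LPS, against 1.53 to 64.7 CPM in the other WT ns and 1416 to 9325 CPM in the other WT LPS libraries. These 4 are shown apart and enter no comparison unless stated. A further set of 6 libraries, all from library set 2, had 2.69% to 8.55% of their counts in mitochondrial genes, against 0.787% to 1.81% in the other 26. These are KO ns 5, KO LPS 5, WT ns 5 and WT LPS 6, all of library number 2, and KO ns 6 and WT LPS 7, of number 3. WT ns 5 and WT LPS 6 are also among the 4 shown apart. Of 10408 genes above a mean of 5 CPM, 21.7% were lower in all 6 than in any other library and 10.8% were higher. Results of the LPS experiment that rest on them are given with and without them. A gene is called where its p-value from edgeR's quasi-likelihood test, adjusted over all genes tested, is under 0.05.

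The T cell receptor genes had few counts. In the sex experiment Cd3d, Cd3e and Cd3g, which encode the delta, epsilon and gamma chains of CD3 and lie together on chromosome 9 (GRCm39, 44893067 to 44898350, 44910033 to 44920961 and 44880870 to 44891729), ranged from 0.0492 to 2.49 CPM over all animals. Trbc2, a constant segment of the receptor beta chain at 41523664 to 41525115 of chromosome 6, ranged from 0.212 to 1.90 CPM. Its span lies inside the Tcrb entry of the same strand, so reads of the locus may be split between the pair. Trbc2 was at 0.340, 1.01, 0.611, 1.18 and 1.90 CPM in the 5 female KO animals and at 0.212, 0.551, 0.349 and 0.776 CPM in the 4 female WT animals. The groups overlap, and the difference of 1.11 ± 0.46 (log2, SE) was not called (adjusted p = 0.775). Cd3d was highest in male WT 5, at 2.49 CPM, and female WT 2, at 1.39 CPM, while no other animal was above 1.02 CPM. Cd3e and Cd3g were not raised with it in male WT 5, at 0.354 and 0.312 CPM.

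NK cell genes were present in every animal. Gzma, the granule protease granzyme A (chromosome 13, 113230358 to 113237515), was at 28.6 to 191.8 CPM. Its span overlaps Cdc20b on the opposite strand, and no strand setting is stated, so reads of this pair cannot be told apart. Klrb1c, the lectin-like receptor known as NK1.1 (chromosome 6, 128755448 to 128765514), was at 9.30 to 49.7 CPM. Il2rb, the beta chain of the IL-2 and IL-15 receptors (chromosome 15, 78363456 to 78396569), was at 10.2 to 64.9 CPM. Nkg7, a membrane protein of cytotoxic granules (chromosome 7, 43086562 to 43087670), was at 3.93 to 24.6 CPM. These spans overlap no other gene except that of Gzma.

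The female KO animals held the highest values of the NK cell genes, mostly through 1 animal. Klrb1c was at 13.6, 16.7, 15.5, 24.5 and 49.7 CPM in female KO, at 9.44, 16.5, 12.7 and 26.96 CPM in female WT, at 9.30, 10.4, 12.8, 14.5 and 12.7 CPM in male KO and at 9.79, 18.6, 19.6 and 9.49 CPM in male WT. All 4 groups overlap, and female KO 5 was the highest animal of all for Klrb1c, Gzma, Il2rb and Nkg7. The differences of females from males were 0.60 ± 0.28 for Klrb1c, 0.68 ± 0.29 for Gzma, 0.63 ± 0.31 for Il2rb and 0.49 ± 0.31 for Nkg7 (log2, SE), and none was called (adjusted p = 0.403, 0.367, 0.424 and 0.522). Of all genes tested, 0.861% were called between the sexes.

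No member was called between KO and WT in the sex experiment. The background was 0.00946% of 31709 genes called in males, 0.164% in females, 0.432% averaged over the sexes and 0% for the sex-by-genotype interaction. For that interaction 879 genes had an unadjusted p under 0.05 and DESeq2 called 0 too. Members with an unadjusted p under 0.05 numbered 1 in males, 3 in females, 1 in the average and 2 in the interaction. Apart from the interaction, the number of all genes at that p is not given, so the counts do not show an excess. In females 8 of the 9 fold changes were above 0 and in males 1 was. The median over all genes tested was -0.01 in each sex. Several members moved together over the same animals, so their signs are not separate results. The interaction estimate was 1.58 ± 0.64 for Trbc2 and 1.42 ± 0.63 for Nkg7, with an adjusted p of 0.999 for both.

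**Figure D1:**
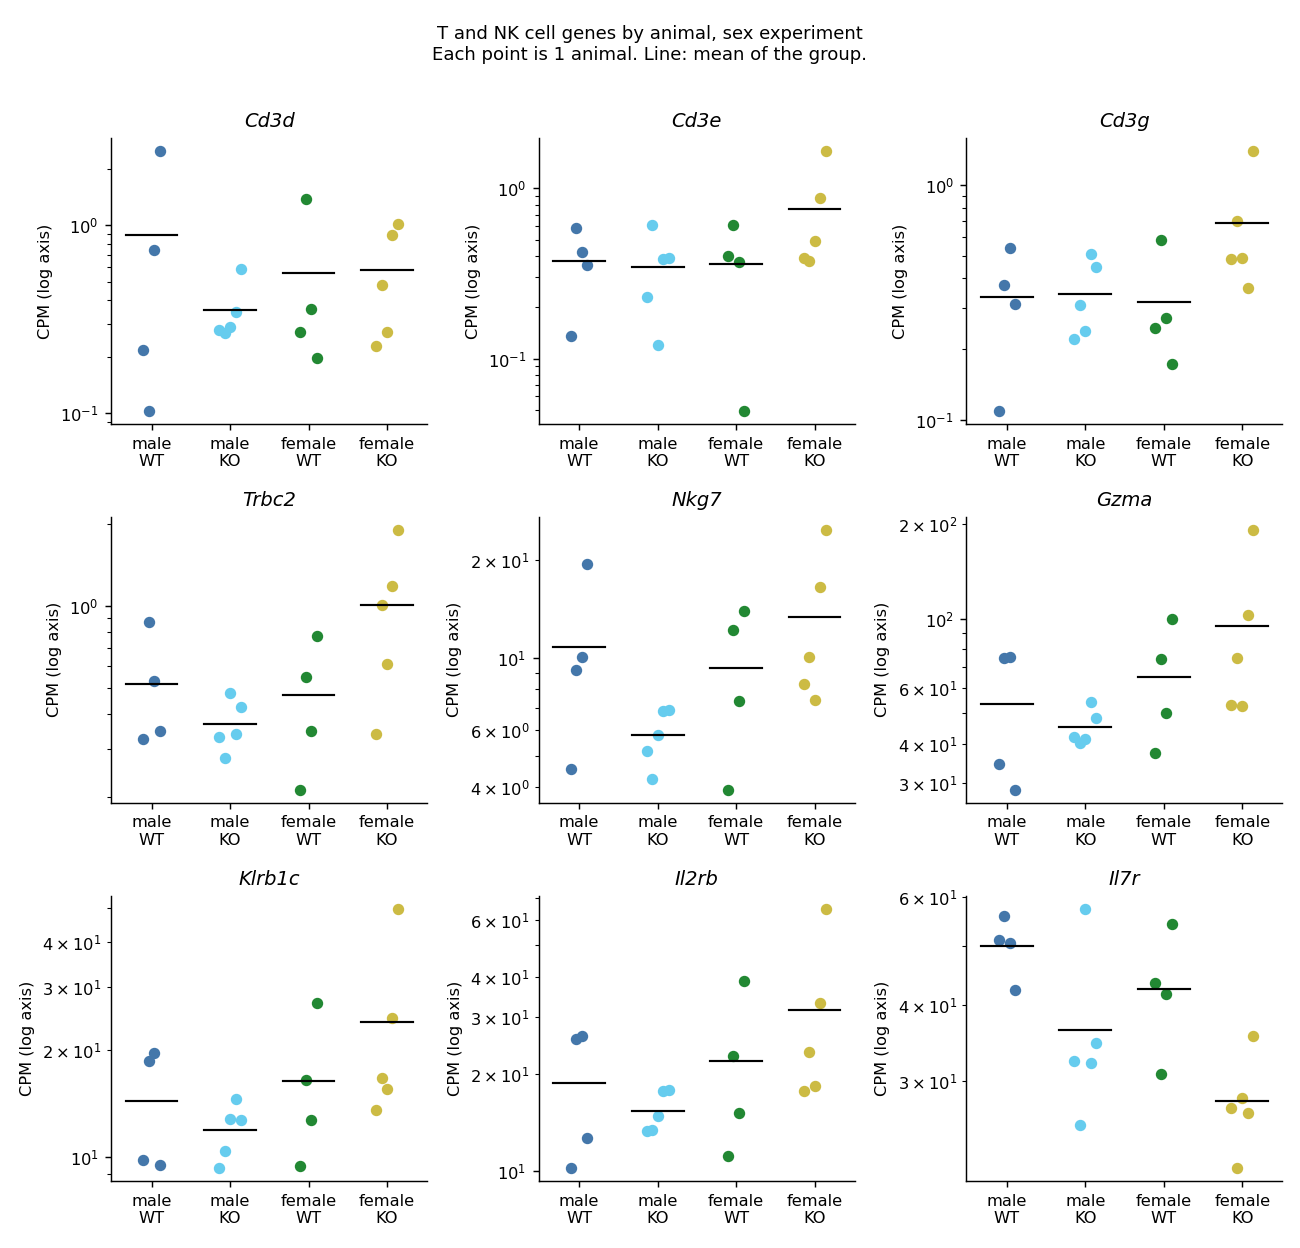
CPM of the 9 genes on a log axis, 1 point per animal of the sex experiment, by sex and genotype, with the group mean as a line. Female KO 5 is the top point of Klrb1c, Gzma, Il2rb and Nkg7, and Il7r has its KO means (36.4 CPM in males, 27.8 in females) below its WT means (49.9 and 42.5 CPM) in both sexes.

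Klrb1c, Gzma and Il2rb kept nearly fixed proportions from animal to animal. Over the 18 animals, log2(CPM + 1) of Klrb1c and Il2rb correlated with Pearson's r = 0.985 and Spearman's rho = 0.963, and that of Klrb1c and Gzma with r = 0.973 and rho = 0.942. Each of these has a permutation p of 1e-05, the smallest that 100000 permutations can give, and an adjusted p of 3.33e-05 over 10 pairs of genes. Without the 2 animals farthest from the median of Klrb1c, r was 0.969 and 0.9497, and after centring each group on its mean it was 0.981 and 0.966. The points share the library and its scaling. Il2rb was at 1.04 to 1.44 times the CPM of Klrb1c in the 18 animals.

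Nkg7 followed less closely, with r = 0.739 and rho = 0.719 against Klrb1c (permutation p = 0.00034 and 0.00102, adjusted p = 0.00068 and 0.00204). Without female KO 5 and female WT 5, r was 0.564. Against Il2rb, Nkg7 had r = 0.77 and rho = 0.74 (permutation p = 0.00022 and 0.00069, adjusted p = 0.00055 and 0.00172), and r = 0.942 without female KO 5 and male WT 5. One animal stood apart: male WT 5 had 2.04 times as much Nkg7 as Klrb1c, and the next highest animal had 0.736 times. Male WT 5 was also the animal with the most Cd3d. No correlation of Il7r with Klrb1c was detected (r = -0.0047, rho = -0.0361, permutation p = 0.986 and 0.889, adjusted p = 0.986 and 0.889). After centring each group on its mean r was 0.436, so the value over all animals and that within groups differ.

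Il7r, the alpha chain of the IL-7 receptor that also serves the receptor for TSLP (chromosome 15, 9505880 to 9530270, no overlapping gene), did not follow the NK cell genes over all animals. It was at 51.0, 56.0, 50.4 and 42.4 CPM in male WT and at 32.3, 25.5, 57.4, 32.1 and 34.6 CPM in male KO. It was at 43.4, 30.8, 41.6 and 54.1 CPM in female WT and at 27.1, 21.6, 28.2, 26.6 and 35.5 CPM in female KO. In males only KO 3 reached the WT animals, and in females only KO 5 exceeded the lowest WT animal. Averaged over the sexes, the KO difference was -0.53 ± 0.14 (log2, SE), and it was not called by edgeR (adjusted p = 0.173). Without male KO 3 it was -0.65 and called (adjusted p = 0.0154). DESeq2 called it with all animals (-0.54, adjusted p = 0.0258). The sex-by-genotype interaction was -0.15 ± 0.29 (adjusted p = 0.999). In the LPS experiment the KO difference was -0.42 ± 0.26 at ns (adjusted p = 0.608) and -0.40 ± 0.27 under LPS (adjusted p = 0.945), or -0.49 ± 0.22 and -0.72 ± 0.23 without the 6 libraries of high mitochondrial share (adjusted p = 0.39 and 0.218).

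Il7r fell under LPS in both genotypes, with the smallest adjusted p of the members tested in each. In WT ns it ran from 30.2 through a median of 49.8 to 53.3 CPM (n = 6), and in WT LPS from 3.44 through 7.86 to 10.3 CPM (n = 6). In KO ns it ran from 23.03 through 31.8 to 51.7 CPM (n = 8), and in KO LPS from 2.71 through 4.18 to 11.7 CPM (n = 8). The LPS and ns libraries do not overlap in either genotype. By edgeR, Il7r changed by -2.61 ± 0.30 on the log2 scale in WT (6.10-fold lower, adjusted p = 1.28e-07) and by -2.58 ± 0.26 in KO (6.00-fold lower, adjusted p = 9.73e-09), and the genotype-by-LPS interaction was 0.02 ± 0.38 (adjusted p = 0.987).

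With the number 2 WT libraries kept apart, Il7r was called lower in both genotypes in each subset examined. Without the 6 libraries of high mitochondrial share it was -2.43 in WT and -2.66 in KO (adjusted p = 4.54e-08 and 2.34e-09). In library set 1 alone it was -2.40 and -2.87 (adjusted p = 1.92e-05 and 1.3e-06), and in set 2 alone -2.75 and -2.21 (adjusted p = 0.0214 and 0.0201). The number 2 libraries went the other way: Il7r was at 6.07 and 12.2 CPM in the pair labelled WT ns and at 41.0 and 63.3 CPM in the pair labelled WT LPS. With these 4 in their labelled groups the WT difference was -0.94 ± 0.48 and was not called (adjusted p = 0.238). In that fit 0% of 16073 genes were called in WT, 3668 with an unadjusted p under 0.05.

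Klrb1c was lower under LPS in KO. In KO ns it ran from 3.06 through a median of 6.73 to 27.7 CPM, and in KO LPS from 0.184 through 1.75 to 4.80 CPM. The groups overlap: 3 KO LPS libraries, at 4.31, 3.39 and 4.80 CPM, lay above the lowest KO ns library. Klrb1c fell by 1.91 ± 0.52 (log2, SE, adjusted p = 0.00621). The highest KO ns values were those of KO ns 5 and KO ns 6, at 14.1 and 27.7 CPM, both of high mitochondrial share. Without the 6 such libraries the difference was -1.202 ± 0.42, and it was still called (adjusted p = 0.0214). In library set 1 alone the difference was -1.29 ± 0.64 and not called (adjusted p = 0.135), and in set 2 alone -2.40 ± 0.57 (adjusted p = 0.0323).

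In WT, Klrb1c ran from 6.94 through 9.59 to 11.6 CPM at ns and from 3.18 through 4.34 to 8.33 CPM under LPS. The difference of -0.87 ± 0.57 was not called (adjusted p = 0.273), nor was that of -0.75 ± 0.45 without the 6 libraries (adjusted p = 0.178). That Klrb1c was called in KO and not in WT does not show that the genotypes differ: the interaction was -1.04 ± 0.76 (adjusted p = 0.801). Under LPS, the KO difference from WT was -1.198 ± 0.54 (log2, SE), which was not called (adjusted p = 0.748).

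Gzma was not called under LPS in either genotype. In WT it ran from 26.1 through 31.8 to 44.8 CPM at ns and from 18.2 through 36.1 to 78.3 CPM under LPS, a difference of 0.42 ± 0.67 (adjusted p = 0.689). In KO it ran from 11.1 through 21.6 to 141.2 CPM at ns and from 1.33 through 17.02 to 43.5 CPM under LPS, a difference of -0.68 ± 0.59 (adjusted p = 0.446). Leaving out the 6 libraries turned the KO difference to 0.22 ± 0.51 (adjusted p = 0.748), and gave 0.52 ± 0.54 in WT (adjusted p = 0.45). Set 1 alone gave 0.06 ± 0.78 in KO (adjusted p = 0.96).

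Il2rb and Nkg7 were not called under LPS either. Il2rb differed by -0.53 ± 0.60 in WT and by -0.39 ± 0.53 in KO (adjusted p = 0.559 and 0.659), and by -0.28 ± 0.48 and -0.39 ± 0.45 without the 6 libraries (adjusted p = 0.663 and 0.505). Nkg7 ran from 8.22 through 12.6 to 27.7 CPM in WT ns, from 3.21 through 4.88 to 15.1 CPM in WT LPS, from 2.21 through 7.25 to 16.6 CPM in KO ns and from 0.827 through 2.93 to 7.60 CPM in KO LPS. Its differences were -1.10 ± 0.58 in WT and -1.22 ± 0.50 in KO (adjusted p = 0.159 and 0.076), and the groups overlap in both genotypes. DESeq2 called Nkg7 in KO (adjusted p = 0.0333), and so did edgeR without KO ns 2 (0.0491) or without KO LPS 3 (0.0453). On leaving out the 6 libraries it was -0.72 ± 0.52 in KO (adjusted p = 0.259) and -0.91 ± 0.55 in WT (adjusted p = 0.183).

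The T cell receptor genes were close to 0 counts under LPS, so pooled counts are given. Over 8 KO LPS libraries Cd3d had 8 counts, Cd3e 7, Cd3g 2 and Trbc2 28, against 46, 17, 36 and 88 over 8 KO ns libraries. Over 6 WT LPS samples they had 13, 6, 10 and 38 counts, against 124, 42, 47 and 112 over 6 WT ns libraries. Scaled for depth, the ratio of LPS to ns for Cd3d was 0.171 in KO (95% exact interval 0.0696 to 0.365) and 0.183 in WT (0.0946 to 0.324). For Cd3g it was 0.0545 in KO (0.00636 to 0.212) and 0.371 in WT (0.167 to 0.743). For Cd3e it was 0.404 in KO (0.142 to 1.03) and 0.249 in WT (0.0865 to 0.588). For Trbc2 it was 0.312 in KO (0.196 to 0.483) and 0.591 in WT (0.398 to 0.861). These intervals cover counting error only and not the spread between samples. Single libraries moved several of these ratios by over 1.5 times. WT ns 8 held 62 of the 124 Cd3d counts of WT ns, and without it the Cd3d ratio in WT was 0.328 (0.165 to 0.603); it was 0.116 without WT ns 4 and 0.106 without the summed WT LPS 8 and 9. The Cd3e ratio was 0.194 in KO without KO LPS 4 and 0.38 in WT without WT ns 4 (0.117 to 1.09). The Cd3g ratio in KO was 0.0305 without KO LPS 4, 0.0323 without KO LPS 6 and 0.0923 without the 6 libraries of high mitochondrial share (0.0104 to 0.383). The Trbc2 ratio in KO was 0.646 without those 6, and its interval then included 1 (0.382 to 1.08). WT ns 4 held 168.4 M of the 284.7 M counts of WT ns and 30 of its 47 Cd3g counts. Without it the Cd3g ratio in WT was 0.447, with an interval that included 1 (0.183 to 1.03). The Trbc2 interval in WT also included 1 without the summed WT LPS 8 and 9, at a ratio of 0.754 (0.492 to 1.13).

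Between samples, edgeR called Cd3d and Cd3g lower in KO (adjusted p = 0.0354 and 0.00104) and Cd3d lower in WT (adjusted p = 0.0152), while Trbc2 was not called in KO (adjusted p = 0.0523). On leaving out any 1 of KO ns 2, KO ns 7, KO LPS 3, 4 or 6 or WT LPS 5, Trbc2 was called in KO (adjusted p from 0.0168 to 0.0481). Cd3e did not pass the filter on low counts. These calls rest on few libraries, and so does the testing of Cd3d and Cd3g, since a gene may pass the filter through 2 libraries. Over all samples Cd3d was highest in WT ns 8, KO ns 6 and WT ns 3, all labelled ns (2.14, 0.785 and 0.737 CPM). Cd3g was highest in WT LPS 6, KO ns 6 and WT ns 5, all of high mitochondrial share (1.82, 0.642 and 0.461 CPM). Both may have been tested only through libraries where they were high, so the calls are no separate evidence of a fall. Cd3d in WT ns was at 2.14 and 0.737 CPM in WT ns 8 and WT ns 3 and at 0 to 0.255 CPM in the other 4, and without WT ns 8 it was no longer called (adjusted p = 0.125). Cd3d in KO was not called without the 6 libraries (-2.29 ± 1.08, adjusted p = 0.0825), where Cd3g did not pass the filter. It was also lost when any 1 of KO ns 1, 4 or 6 or KO LPS 3, 4, 6 or 7 was left out, with an adjusted p up to 0.0928 on leaving out KO ns 4. KO ns 6 had the highest KO ns value of Cd3d, Cd3g and Trbc2.

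Of the 8 members tested, 4 were called in KO and 2 in WT, all lower under LPS: Cd3d, Cd3g, Klrb1c and Il7r in KO, and Cd3d and Il7r in WT. Cd3d and Cd3g may count among the 8 only through the few libraries where they were high. The background was 26.2% of 17954 genes called in KO and 28.1% in WT, with 14.2% and 14.6% called lower. Without the 6 libraries, 2 of 7 members were called in each genotype, Klrb1c and Il7r in KO and Cd3d and Il7r in WT, when 49.9% and 49.6% of 18282 genes were called. The share of members called was then below that of all genes called in either direction. With all libraries the WT share was near that background. Set against genes called lower, 2 of 7 was near the 24.2% in KO and 25.1% in WT. With all libraries, 4 of 8 in KO and 2 of 8 in WT exceeded 14.2% and 14.6%, but Cd3d and Cd3g count there. The median change of the 8 members was -1.81 in KO and -0.98 in WT, against -0.03 and -0.02 over all genes tested. Without the 6 libraries the median of the 7 members tested was -0.72 in KO and -0.75 in WT. All genes tested then had medians of -0.003 and -0.01. No member was called between KO and WT at ns (0.0891% of all genes), between KO and WT under LPS (0.078%) or for the genotype-by-LPS interaction (0%, with 890 genes at an unadjusted p under 0.05 and 3 called by DESeq2). Members with an unadjusted p under 0.05 numbered 1, 2 and 0 in these. Without the 6 libraries no member was called either (0.252%, 0.252% and 0.00547% of all genes), and the numbers were 3, 3 and 0. For KO against WT, the number of all genes at that p is not given, so these counts do not show an excess. The median KO difference of the members moved from -0.29 to -0.85 at ns and from -0.99 to -1.02 under LPS.

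**Figure D2:**
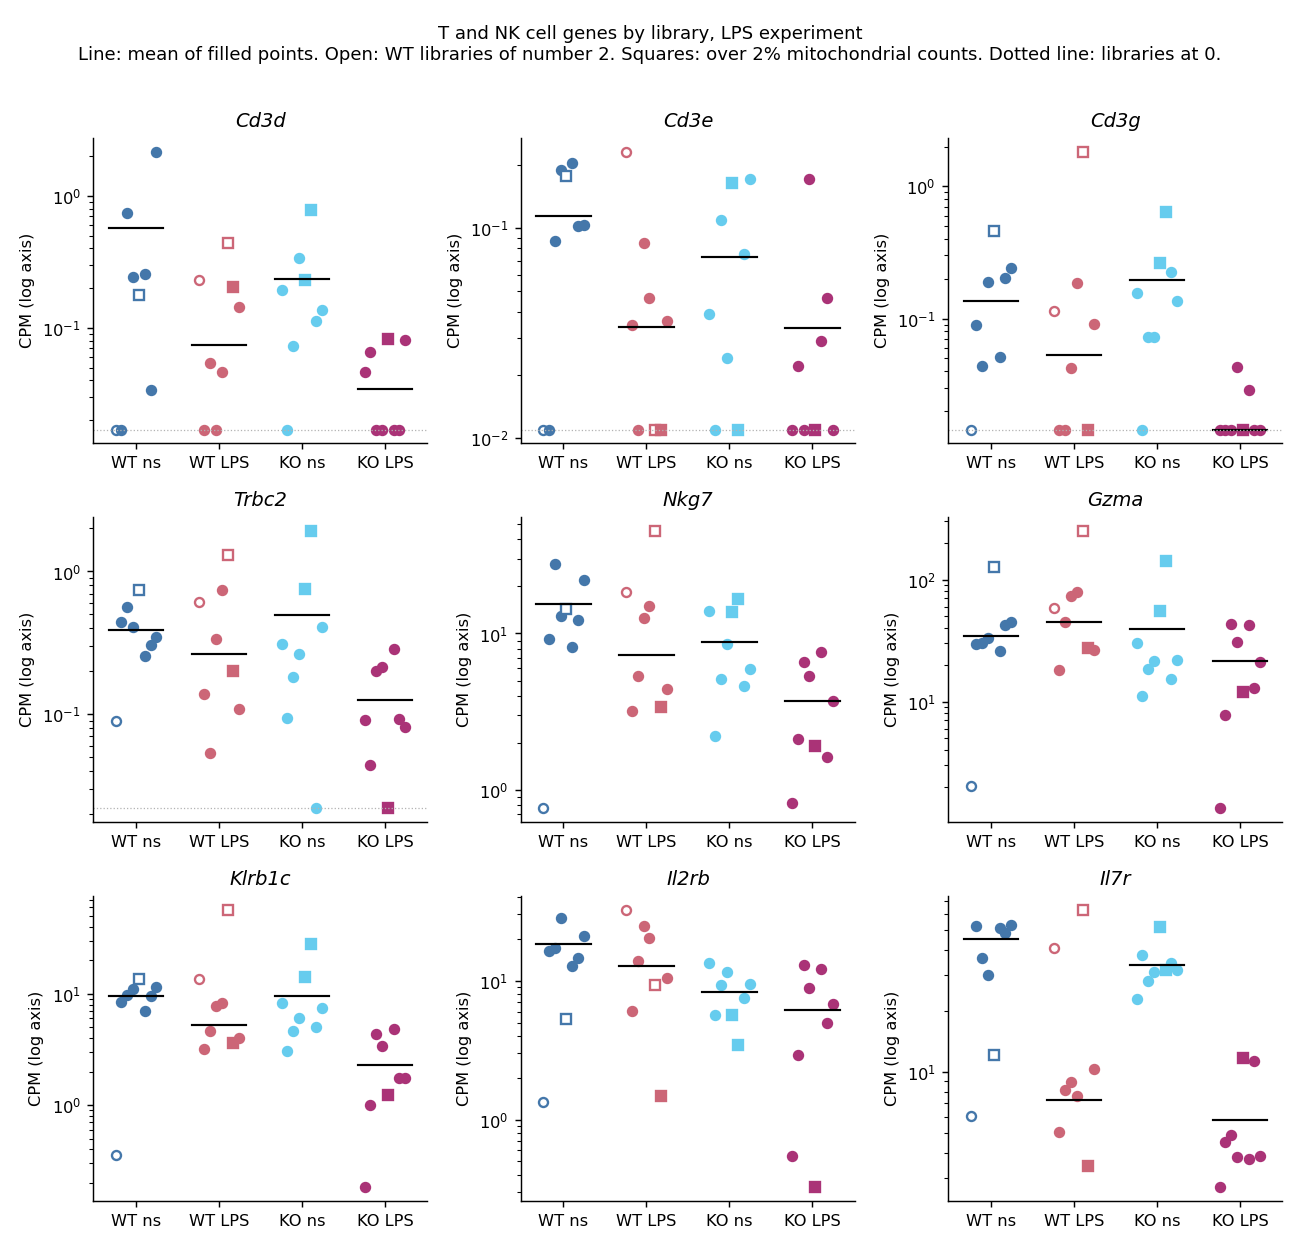
CPM of the 9 genes on a log axis, 1 point per sample of the LPS experiment, with the mean of the filled points as a line. Open points are the WT libraries of number 2, squares are the libraries with over 2% mitochondrial counts, and points on the dotted line are at 0. Il7r is the gene whose ns and LPS points do not overlap within either genotype once the open points are set aside.

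Other receptors of NK cells fell along with Klrb1c in KO. Of 16 such receptors, 15 were in the LPS table and tested, and 12 were called lower in KO under LPS, with a median of -2.06, against 14.2% of all genes called lower. Klrb1b, a lectin-like receptor encoded beside Klrb1c, fell by 1.81 ± 0.35 (adjusted p = 0.000193) from 3.05 ± 2.15 to 0.85 ± 0.377 CPM (SD, n = 8). Klrd1, the CD94 chain that pairs with the NKG2 receptors, fell by 2.69 ± 0.55 (adjusted p = 0.000426) from 13.2 ± 7.61 to 2.02 ± 1.56 CPM, and Klrc2, an activating NKG2 receptor, fell by 2.75 ± 0.57 (adjusted p = 0.000519). Klrb1f fell by 2.22 ± 0.53 (adjusted p = 0.00227). When the 6 libraries were left out, 10 of 15 were called lower in KO, with a median of -1.37, against 24.2% of all genes called lower. The changes were then smaller, at -1.41 ± 0.27 for Klrb1b and -2.15 ± 0.47 for Klrd1 (log2, SE, adjusted p = 0.000119 and 0.000612). They were -2.04 ± 0.47 for Klrc2 and -1.65 ± 0.55 for Klrb1f (adjusted p = 0.000901 and 0.0154).

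In WT, 14 of the 15 NK cell receptors had a fold change below 0, with a median of -1.06, but 1 was called, Klrb1f (-2.07 ± 0.60, adjusted p = 0.0106). That count depends on single libraries. Without the 6 libraries of high mitochondrial share 7 were called lower in WT, with a median of -0.93, when the share of all genes called lower went from 14.6% to 25.1%. The count was 5 without WT LPS 4, 3 without KO LPS 1, and 2 without WT LPS 5 or without KO ns 6. None of the 15 was called for the genotype-by-LPS interaction, so a difference between the genotypes was not shown.

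**Figure D3:**
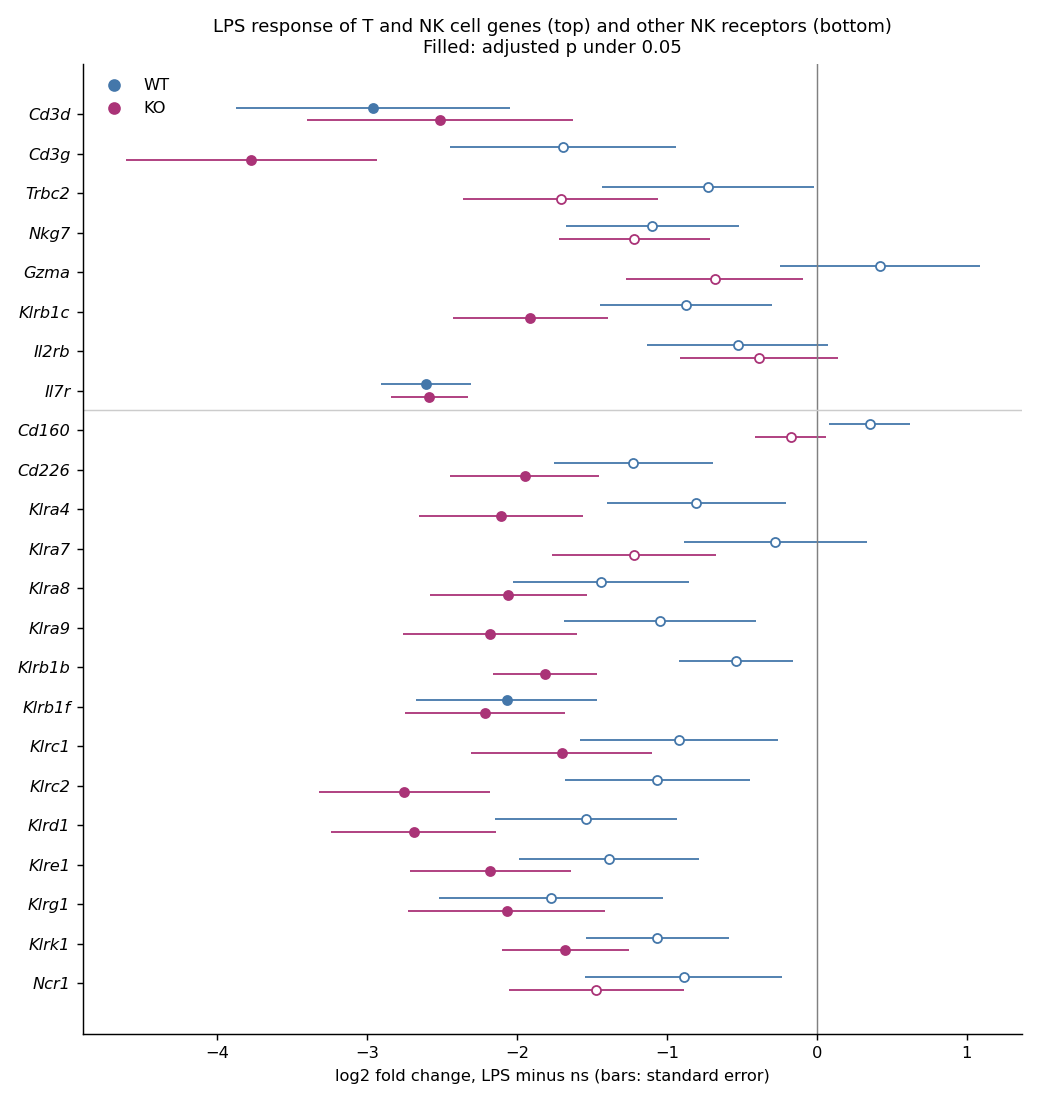
Log2 fold change of LPS minus ns in WT and KO with its standard error, for the 8 members tested above the line and 15 other NK cell receptors below it. Filled points have an adjusted p under 0.05. The 15 receptors lie below 0 in KO and 14 do in WT, while Gzma lies above 0 in WT and below it in KO.

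Of 11 other genes of the T cell receptor complex tested, 6 were called lower in KO and 3 in WT, with medians of -1.67 and -1.57, against 14.2% and 14.6% of all genes called lower. Cd28, a costimulatory receptor, fell (-3.83 ± 0.55 in KO, -3.05 ± 0.58 in WT; adjusted p = 4.26e-06 and 0.000209), from 1.38 and 1.94 CPM on average at ns. Cd5, which dampens receptor signalling, fell too (-3.28 ± 0.54 and -3.06 ± 0.60, adjusted p = 2.66e-05 and 0.000322), from low means of 0.662 and 0.713 CPM at ns to 0.0642 and 0.0811 CPM under LPS. Cd4, a co-receptor that myeloid and dendritic cells can also carry, fell likewise (-2.26 ± 0.39 and -2.72 ± 0.45; adjusted p = 5.12e-05 and 4.12e-05). Cd28 and Cd5 reached at most 0.242 and 0.173 CPM in KO LPS, and 0.419 and 0.170 CPM in WT LPS. Both may have been tested only through libraries where they were high, so their calls are no separate evidence of a fall. The counts called lower include them. With the 6 libraries left out, 5 of 11 were called lower in each genotype, when 24.2% of all genes were called lower in KO and 25.1% in WT. Of the genes that signal from the receptor, 4 of 11 fell and 1 rose in KO, and 3 fell and 1 rose in WT, against 26.2% and 28.1% of all genes called. Leaving out the 6 libraries, 2 fell and 2 rose in KO and 3 fell and 1 rose in WT (49.9% and 49.6% of all genes). Prkcq, a kinase of T cell activation, fell (-2.11 ± 0.23 and -2.64 ± 0.27; adjusted p = 3.16e-08 and 1.56e-08), while Lcp2, an adaptor that myeloid cells share, rose by 0.82 ± 0.14 and 0.74 ± 0.16 (adjusted p = 3.08e-05 and 0.000681).

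Of 12 genes tested of the common gamma chain cytokine system, 3 receptor chains (Il2rg, Il15ra and Il4ra) rose under LPS in each genotype and 2 genes fell, against 26.2% of all genes called in KO and 28.1% in WT. Il2rb, which belongs to the same system, was not called. Leaving out the 6 libraries, 6 rose and 3 fell in KO and 5 rose and 5 fell in WT, against 49.9% and 49.6% of all genes called. Il2rg, the common gamma chain, rose by 2.70 ± 0.18 in KO and by 2.26 ± 0.21 in WT (adjusted p = 6.73e-12 and 3.08e-09), from 9.59 ± 2.43 to 62.8 ± 15.3 CPM in KO (SD, n = 8). Il15ra, which presents IL-15 to cells bearing Il2rb, rose by 2.56 ± 0.25 and 3.05 ± 0.30 (adjusted p = 6.54e-09 and 7.76e-09). Il4ra, the IL-4 receptor chain, rose by 1.81 ± 0.25 and 1.498 ± 0.28 (adjusted p = 1.83e-06 and 0.000183). Tslp, a cytokine read through Il7r, fell (-2.19 ± 0.22 and -2.48 ± 0.25; adjusted p = 6.72e-09 and 1.6e-08).

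Genes of lymphocyte movement split. Of 10 tested, 2 rose and 3 fell in each genotype, against 26.2% and 28.1% of all genes called in KO and WT. Leaving out the 6 libraries, 2 rose and 3 fell in KO and 2 rose and 4 fell in WT (49.9% and 49.6% of all genes). Ccl5, a chemokine that draws T and NK cells, rose by 3.12 ± 0.30 in KO and 2.98 ± 0.34 in WT (adjusted p = 4.1e-09 and 1.19e-07). Ccr7, a homing receptor, rose by 1.88 ± 0.51 and 3.28 ± 0.58 (adjusted p = 0.00578 and 8.65e-05), from low means of 0.246 and 0.166 CPM at ns. It reached at most 0.277 CPM in WT ns. Ccr7 may have been tested only through libraries where it was high, so its calls are no separate evidence of a rise. S1pr1, a receptor for lymphocyte exit that microglia can also carry, fell (-3.12 ± 0.21 and -3.77 ± 0.25; adjusted p = 7.24e-12 and 1.29e-11), and Cxcr3, a receptor of activated T and NK cells, fell (-2.53 ± 0.31 and -2.49 ± 0.36; adjusted p = 2.89e-07 and 4.37e-06).

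Of 9 lymphocyte transcription factors tested, 1 rose and 2 fell in KO, and 1 rose and 4 fell in WT, against 26.2% and 28.1% of all genes called. Leaving out the 6 libraries, 1 rose and 3 fell in KO and 1 rose and 6 fell in WT (49.9% and 49.6% of all genes). Id2 rose by 1.37 ± 0.26 and 2.11 ± 0.31 (adjusted p = 0.000162 and 5.12e-06), and Tcf7, a factor of naive T cells, fell (-1.47 ± 0.55 and -2.14 ± 0.60, adjusted p = 0.0489 and 0.0082). Tcf7 had few counts, with means of 0.407 CPM in KO ns, 0.143 in KO LPS, 1.06 in WT ns and 0.230 in WT LPS. It reached at most 0.260 CPM in KO LPS and 0.594 CPM in WT LPS. Tcf7 may have been tested only through libraries where it was high, so its calls are no separate evidence of a fall. Rora fell (-1.75 ± 0.26 and -1.86 ± 0.30; adjusted p = 5.21e-06 and 2.51e-05). Of 9 granule and effector genes tested, 2 were called lower in KO, Xcl1 and Ifng, and 0 in WT, against 26.2% and 28.1% of all genes called. Both had few counts, with means of 0.557 and 0.384 CPM in KO ns and 0.128 and 0.0836 CPM in KO LPS. Their highest KO LPS values were 0.322 and 0.242 CPM. Both may have been tested only through libraries where they were high, so these LPS calls are no separate evidence of a fall. Leaving out the 6 libraries, 8 were tested, of which 1 was higher and 3 lower in KO and 2 were higher and 2 lower in WT (49.9% and 49.6% of all genes). Ifng, which encodes interferon gamma, was the 1 gene of these lists called in the sex experiment, 1.40 ± 0.31 higher (log2) in females (adjusted p = 0.043). Its level was 4.13 ± 3.22 CPM in female KO (n = 5), 3.46 ± 1.78 in female WT (n = 4), 1.34 ± 0.337 in male KO (n = 5) and 1.501 ± 0.412 in male WT (n = 4), as mean ± SD.

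Markers of other cell types moved with LPS too, and their part in these results was not tested. Of 10 B cell genes 6 were called lower in KO and 7 in WT, against 14.2% of all genes called lower in KO and 14.6% in WT. The same shares apply to the counts below that use all libraries. Their summed level ran from 345 to 580 CPM in KO ns, 146 to 244 in KO LPS, 458 to 536 in WT ns and 98.9 to 192 in WT LPS. In each of these groups 6 of the 10 genes had a median under 1 CPM, so few genes carry the sum. Of 7 dendritic cell genes tested, 4 were called lower in each genotype. The sum of the 8 listed ran from 1382 to 2131 CPM in KO ns, 307 to 569 in KO LPS, 1126 to 1608 in WT ns and 183 to 504 in WT LPS. Of these 8, Siglech among them, 3 had a median under 1 CPM in KO ns and 5 in WT LPS. Such a sum is weighted by its most abundant genes and does not measure dendritic cells. Of 10 neutrophil genes 0 were called in KO and 2 in WT, lower, and their sums overlap in both genotypes. The sums were 327 to 9507 CPM in KO ns and 1100 to 4271 in KO LPS. In WT they were 374 to 18229 CPM at ns and 1890 to 12964 under LPS. Of 10 markers of microglia 5 were called lower in KO and 7 in WT, and 8 and 9 without the 6 libraries, when 24.2% and 25.1% of all genes were called lower. The labelled cell type was nevertheless present in every library, with the 10 markers summing to 18803 to 49190 CPM.

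The high-mitochondrial libraries differed in the balance of the NK cell genes. Il2rb was at 1.28 to 3.93 times the CPM of Klrb1c in the other 26 samples and at 0.123 to 0.407 times in these 6, so the ranges do not meet. KO ns 6, for example, had 141.2 CPM of Gzma and 27.7 CPM of Klrb1c, the highest of KO ns, but 3.42 CPM of Il2rb, the lowest. Gzma was at 3.92 to 9.77 times the CPM of Klrb1c in the 6 and at 2.96 to 12.2 times in the others, so that ratio did not set them apart. It differed with LPS instead. With the WT libraries of number 2 left out, it was 2.96 to 5.09 in KO ns and 7.25 to 12.2 in KO LPS. It was 3.05 to 4.46 in WT ns and 5.72 to 9.63 in WT LPS, so ns and LPS do not overlap in either genotype. These ratios were looked at after the values were seen and were not tested. The cause of the differences was not tested.

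**Figure D4:**
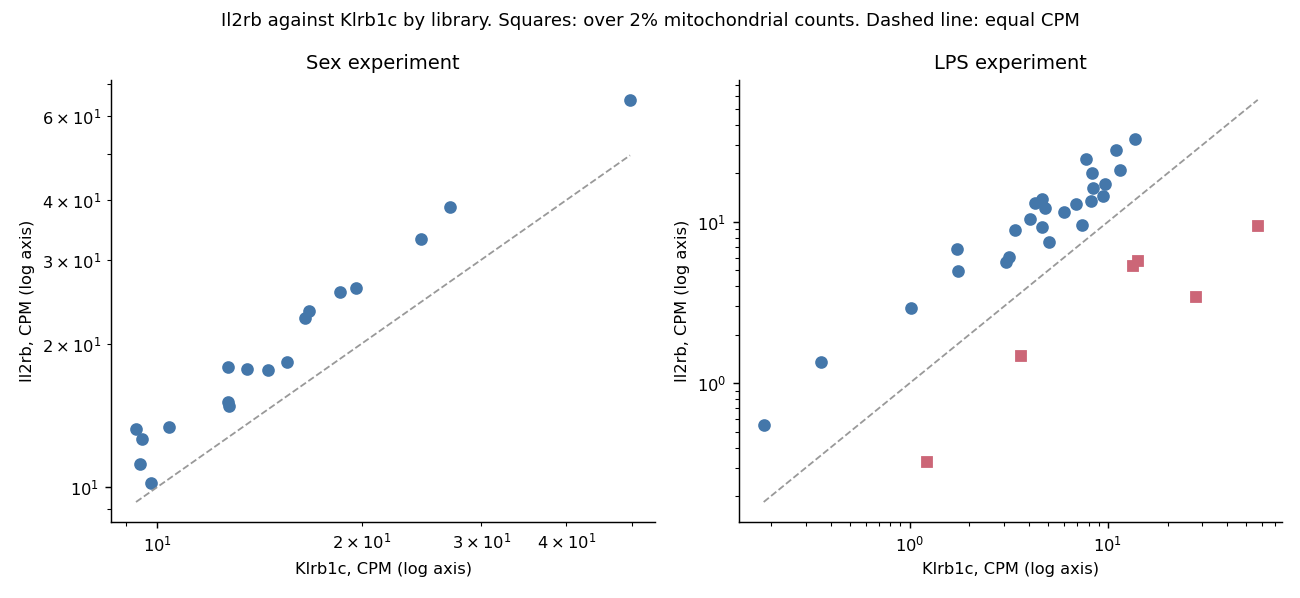
CPM of Il2rb against CPM of Klrb1c on log axes, 1 point per library, in the sex experiment and the LPS experiment, with the line of equal CPM. In both panels the round points lie above the line, at ratios of 1.04 to 1.44 and 1.28 to 3.93, while the 6 squares, the libraries with over 2% mitochondrial counts, lie below it at 0.123 to 0.407.

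Nkg7 and Cd3d were high together in some WT libraries. WT ns 3 and WT ns 8 had the highest Nkg7 of WT ns, at 27.7 and 22.1 CPM, and its highest Cd3d, at 0.737 and 2.14 CPM. Their Cd3e was at 0.0867 and 0.104 CPM and their Klrb1c at 9.71 and 11.6 CPM, while WT ns 3 also had the highest Trbc2 of WT ns, at 0.564 CPM, and WT ns 8 its highest Cd3g, at 0.242 CPM. Male WT 5 of the sex experiment had the most Cd3d and the most Nkg7 relative to Klrb1c, as given above.

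The genes whose levels most resembled those of the members are given as a description. Over the 18 animals of the sex experiment, the sum of Nkg7, Gzma and Klrb1c was followed most closely by Cdc20b (Spearman's rho = 0.977), which overlaps Gzma and may share its reads, then Klri2 (0.959), Ctsw (0.959), Ncr1 (0.957) and Gm41331 (0.957). Over the 32 samples of the LPS experiment these were Gimap4 (0.976), Klra7 (0.951), Ncr1 (0.940), Serpinb6b (0.934) and Klra4 (0.911). The sum of Cd3d, Cd3e, Cd3g and Trbc2 was followed in the LPS experiment by Klra4 (0.910), Klrk1 (0.905), Klra9 (0.902), Klre1 (0.902) and Ncr1 (0.899), all of them NK cell receptors. In the sex experiment it was followed by Sigirr (0.938), Tmsb10b (0.928), Gm26885 (0.899), Gm5526 (0.897) and Stom (0.893). The points of each correlation share their library and its depth.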

How the data were processed

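The authors deposited raw counts per gene, 1 table per experiment; per the submitters' processing notes the build was GRCm39 and the tools STAR 2.6.1, featureCounts and DESeq2. Per the file headers, the sex table gives each gene's whole span as its length, so introns lie inside it. Among counts from 1 to 20, even numbers made up 79.0% to 89.2% in this table, against 39.7% to 45.6% in the LPS table. Counting thus differed, and no model joined the tables. All columns matched a sample (0 unmatched), and 6 repeat libraries named in the labels were not analysed here. The chi-square over its degrees of freedom was 1.86 between WT LPS 8 and 9 and 8.32 or more between other replicates of the LPS experiment; that pair was summed as 1 sample.

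Counts were filtered (filterByExpr), scaled by TMM and tested with edgeR 4.0.16 (quasi-likelihood F test, robust) in R 4.3.3, with 1 mean per group, library set as a term in the LPS experiment, and Benjamini-Hochberg adjustment over all genes tested. The smallest fitted group is a pair of libraries of number 2, so a gene may pass the filter through 2 libraries. The scripts were tested on simulated data. Labels do not say that samples are separate animals in the LPS experiment, so p-values there measure the spread between samples, which may be technical. Named are the 9 members; from each T and NK cell list, per comparison, at most 4 called genes of smallest adjusted p; and, for likeness, the 5 genes of largest Spearman's rho. Alternatives were DESeq2 1.42.0, RLE scaling, other filters, only the groups compared, a replicate block, each sample left out, each library set alone, no set term, other treatments of the number 2 libraries and, chosen after seeing the data, leaving out libraries above 2% mitochondrial counts and, for pooled ratios, each library. The members and lists were chosen with earlier results of these data known.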

Additional observations from a re-analysis of the deposited data

Results flagged for a closer look

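In 10 of 72 groups of 4 to 8 samples, 1 library lay far from the rest of its group by Dixon's test on CPM. The test is set at about 1 in 20 for independent, normally distributed values. CPM near 0 and genes that share libraries do not meet that, so 10 of 72 does not show an excess. KO ns 6, a library of high mitochondrial share, accounts for 5 of them: it was at 0.785 CPM for Cd3d (next 0.336), 0.642 for Cd3g (next 0.262), 1.93 for Trbc2 (next 0.754), 141.2 for Gzma (next 55.5) and 27.7 for Klrb1c (next 14.1). WT ns 8 was at 2.14 CPM for Cd3d, with the next at 0.737, and KO LPS 4 at 0.172 CPM for Cd3e, with the next at 0.0462. In the sex experiment female WT 2 was at 1.39 CPM for Cd3d (next 0.360), male KO 5 at 0.589 CPM for Cd3d (next 0.347) and male KO 3 at 57.4 CPM for Il7r (next 34.6).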

How the results depend on the processing

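Over 2615 alternative values of 85 pairs of a member and a comparison, 2574 kept their side of the threshold and, where the estimate exceeded its standard error, their direction. 16 calls were lost, 18 were gained and 7 values changed direction. Of 2365 values uncalled both ways, 116 changed sign. The changes of direction were Gzma in KO under LPS (0.0648 in library set 1 alone and 0.22 without the libraries over 2% mitochondrial counts), Trbc2 in WT (0.0381 with the number 2 libraries as labelled and 0.21 in set 2 alone), Klrb1c in WT (0.45 with the number 2 libraries as labelled), Il7r between KO and WT under LPS (0.17 in set 2 alone) and the genotype-by-LPS interaction of Trbc2 (0.62 in set 1 alone).

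Of the members, 4 were called for LPS in KO. The number was 2 with a filter at a mean of 1 CPM, with only the groups compared, with the number 2 libraries as labelled, without number 2 libraries of all groups and without the high-mitochondrial libraries, and 1 in set 1 alone. The 2 called in WT became 1 with the filter at 1 CPM, in set 2 alone and without number 2 libraries of all groups, and 0 with the number 2 libraries as labelled. Leaving out 1 sample gave 3 to 6 in KO, 1 to 2 in WT and 0 to 1 for KO against WT averaged over sexes, where DESeq2 gave 1. The 12 NK cell receptors called lower in KO became 6 in set 1 alone and 6 in set 2 alone, and 10 to 14 with 1 sample left out. The 1 called lower in WT became 3 with DESeq2, 5 with only the groups compared, 6 with WT LPS 8 and 9 as 2 samples, 5 without number 2 libraries of all groups, 7 without the high-mitochondrial libraries, 0 with number 2 as labelled, 0 in set 1 alone, 0 in set 2 alone, and 1 to 5 with 1 sample left out. The cause was not tested, except that the library sets alone have fewer samples and a higher filter tests fewer genes.

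Numbers were not taken as pairs in the main fits, as same-numbered samples did not all deviate together. The lowest r of a pair was -0.54 for the sex table and -0.31 for the LPS table. A low r of some pairs does not show that same-numbered samples are unrelated, and the main p-values leave out any such relation. The mean r of same-numbered samples was 0.347 in the LPS table, against 0.00321 for other pairs, with 31 of 45 above 0.1, and 0.0994 in the sex table, against -0.0193, with 15 of 24 above 0.1. With a replicate block, 1 member was called for KO against WT averaged over sexes (Il7r, -0.49, adjusted p = 0.0496), 1 for LPS in WT, and 7 NK cell receptors were lower in WT. With the block Cd3d was lost in KO (adjusted p = 0.0581) and WT (0.23), and Nkg7 was gained in KO (0.0462). Depth limits the CD3 genes, which had 0 counts in some libraries of each LPS group.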
